A study of Mus musculus with 2 samples.

Results

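Sst+ interneurons (SSTGA) of the mouse primary motor cortex, dissection MOp-2, were examined by single-nucleus ATAC-seq. Members were the nuclei whose deposited annotation reads SSTGA, and there were 549 of 16314 nuclei. Replicate 1 held 247 of 7440 nuclei and replicate 2 held 302 of 8874. Both libraries were made on the droplet-based 10x platform from untreated tissue, and there was 1 condition. According to the methods, the mice were C57BL/6J males of 56 to 63 days, and tissue of a dissection was pooled from several animals per biological replicate, which is not said separately for these libraries. With 2 libraries of 1 condition, an exact paired permutation test cannot go below p = 0.5. No p-value was therefore given, and nuclei were not treated as replicates.

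Sst+ interneurons are inhibitory neurons that release GABA and the neuropeptide somatostatin. They arise in the medial ganglionic eminence (MGE) of the embryo, as do the Pvalb+ interneurons (PVGA). In cortex, many of them contact the dendrites of pyramidal neurons, and Martinotti cells send their axons up to layer 1, whereas Pvalb+ basket cells contact the soma. The third GABAergic name of these libraries is CGE, for the caudal ganglionic eminence, from which Vip+ and most Lamp5+ interneurons come. ATAC-seq cuts accessible DNA with the Tn5 transposase, so that the number of unique fragments in a nucleus is a measure of how much of its open chromatin was sampled.

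The marker genes given for SSTGA are Sst, Elfn1 and Lypd6b. Sst encodes the precursor of somatostatin and is a protein-coding gene on the minus strand of chromosome 16, from 23889573 to 23890958 (mm10, GENCODE M21). Elfn1, which encodes a synaptic membrane protein that recruits metabotropic glutamate receptors to inputs onto these interneurons, lies on the plus strand of chromosome 5 from 139907943 to 139974722. Lypd6b, of the Ly6 family of proteins that act on nicotinic receptors, lies on the plus strand of chromosome 2 from 49787688 to 49948849. The gene bodies span 1386, 66780 and 161162 bases, respectively. The tables analysed here hold no value per gene. The name SSTGA was therefore used as deposited and was not checked against these markers.

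SSTGA was the smallest of the 3 GABAergic groups by number of nuclei in both libraries, and its share hardly differed between them. It made up 3.32% of all nuclei in replicate 1 (exact 95% interval 2.92 to 3.75) and 3.40% in replicate 2 (3.04 to 3.80), a mean of 3.36% ± 0.0589 (SD, n = 2 libraries). These intervals cover counting error only. Of neurons, it made up 5.23% (4.61 to 5.91) and 5.26% (4.70 to 5.87). The log2 ratio of its share of all nuclei, replicate 2 to replicate 1, was 0.04 with a counting interval of -0.20 to 0.27. The matching values were -0.01 for PVGA and 0.15 for CGE, and both intervals included 0 (-0.22 to 0.19 and -0.08 to 0.38).

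Within the GABAergic nuclei, SSTGA took 29.4% of 839 in replicate 1 (26.4 to 32.7) and 29.1% of 1037 in replicate 2 (26.4 to 32.0). The SD of this share over the 2 libraries was 0.224 percentage points, and it was 1.26 for PVGA and 1.49 for CGE. For each name the counting intervals of the 2 libraries overlapped, so these SDs do not rank the names. The shares also have a common denominator, so their SDs are not independent. There were 0.733 SSTGA nuclei for each PVGA nucleus in replicate 1 (247 to 337, counting interval 0.619 to 0.866) and 0.759 in replicate 2 (302 to 398, 0.651 to 0.883), a mean of 0.746 ± 0.0183 (SD, n = 2). Both intervals lay below 1. Against CGE the ratio was 0.969 in replicate 1 (247 to 255, 0.810 to 1.16) and 0.896 in replicate 2 (302 to 337, 0.765 to 1.05). Both of these intervals included 1, so the order of SSTGA and CGE was not resolved by counting.

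**Figure D1:**
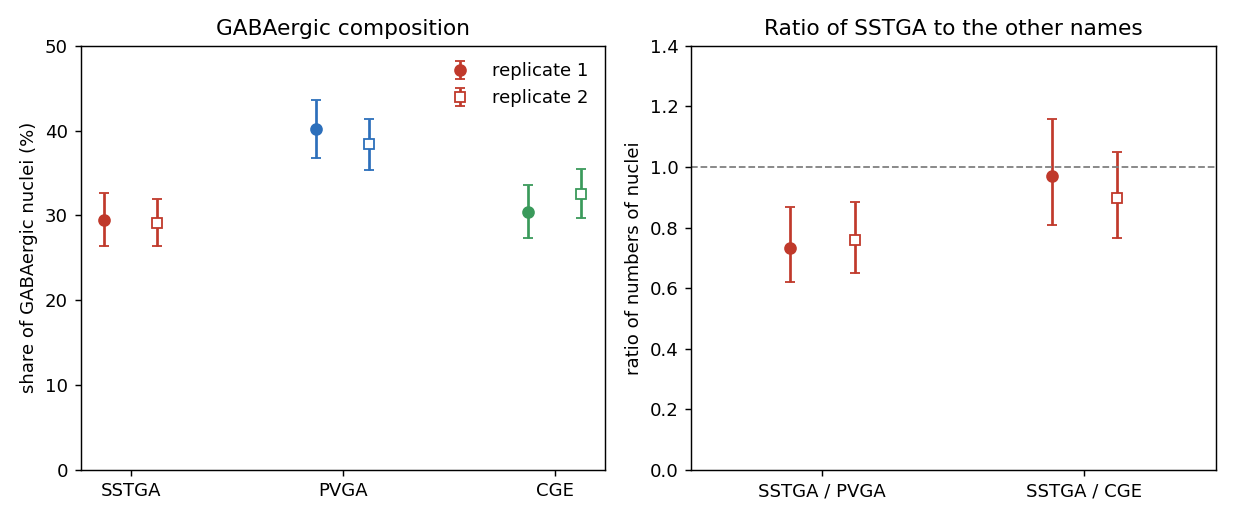
Left, share of GABAergic nuclei (%) in SSTGA, PVGA and CGE; right, ratio of the number of SSTGA nuclei to PVGA and to CGE nuclei, with a dashed line at 1. Points are single libraries (filled, replicate 1; open, replicate 2) and bars are exact 95% intervals of counting error. The ratio to PVGA lies below 1 in both libraries, at 0.733 and 0.759, and the intervals of the ratio to CGE include 1.

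In depth, SSTGA lay between the other interneurons. Its median count of unique fragments per nucleus was 7047 in replicate 1 (quartiles 5173 and 8886) and 6666 in replicate 2 (4263 and 8543), a mean of medians of 6857 ± 269 (SD, n = 2). PVGA had 8082 and 7013, and CGE had 6105 and 5668. The SSTGA median was 0.872 of that of PVGA in replicate 1 and 0.951 in replicate 2. It was 1.15 times that of CGE in replicate 1 and 1.18 times in replicate 2. The order PVGA, SSTGA, CGE was therefore the same in both libraries, but the distributions overlapped widely. Among all pairs of 1 SSTGA and 1 PVGA nucleus of the same library, the SSTGA nucleus had fewer fragments in 59.8% and 55.98%, and in pairs with CGE it had more in 58.6% and 57.0%. Among the 17 names, the SSTGA median ranked 8 from the top in both libraries. All non-neuronal names had lower medians than the neuronal names, so SSTGA also ranked 8 among the 10 neuronal names.

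The gap to PVGA was larger in replicate 1 than in replicate 2. From replicate 1 to replicate 2 the median of SSTGA moved to 0.946 of its value, that of CGE to 0.928 and that of PVGA to 0.868. Of all 17 names, PVGA had the lowest such ratio but for vascular endothelial cells (0.764). The ratio of SSTGA to PVGA thus rose as the PVGA median fell further than that of SSTGA. The median over all nuclei fell too, from 6170 to 5457, and the SSTGA ratio ranked 4 from the top of the 17 names. Which of the 2 names departed from its library therefore depends on the baseline.

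SSTGA nuclei were also spread over a wide range of depth. They held 1003 to 20887 unique fragments in replicate 1 and 1043 to 17269 in replicate 2, where the study's filter asked for at least 1000. The SD of log10 unique fragments was 0.227 and 0.241, that of PVGA 0.198 and 0.246, and that of CGE 0.190 and 0.219. In replicate 1 the SD of SSTGA ranked 1 among the 10 neuronal names, and in replicate 2 it ranked 4. Below 3000 fragments lay 8.10% of the SSTGA nuclei of replicate 1 (20 nuclei, exact 95% interval 5.02 to 12.2) and 11.9% of those of replicate 2 (36 nuclei, 8.49 to 16.1). For PVGA these shares were 4.15% (2.29 to 6.87) and 9.30% (6.63 to 12.6), and for CGE 5.88% (3.33 to 9.52) and 10.7% (7.59 to 14.5). The SSTGA share was the highest of the 3 names in both libraries, but the intervals of the 3 names overlapped in each. Overlap of separate intervals does not test a difference, and whether SSTGA has a larger shallow tail was not tested. At the other end, 1.21% and 4.30% of SSTGA nuclei had more than 2 times the median of their library's SSTGA nuclei. The matching shares were 1.19% and 6.03% for PVGA, and 2.35% and 5.64% for CGE.

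**Figure D2:**
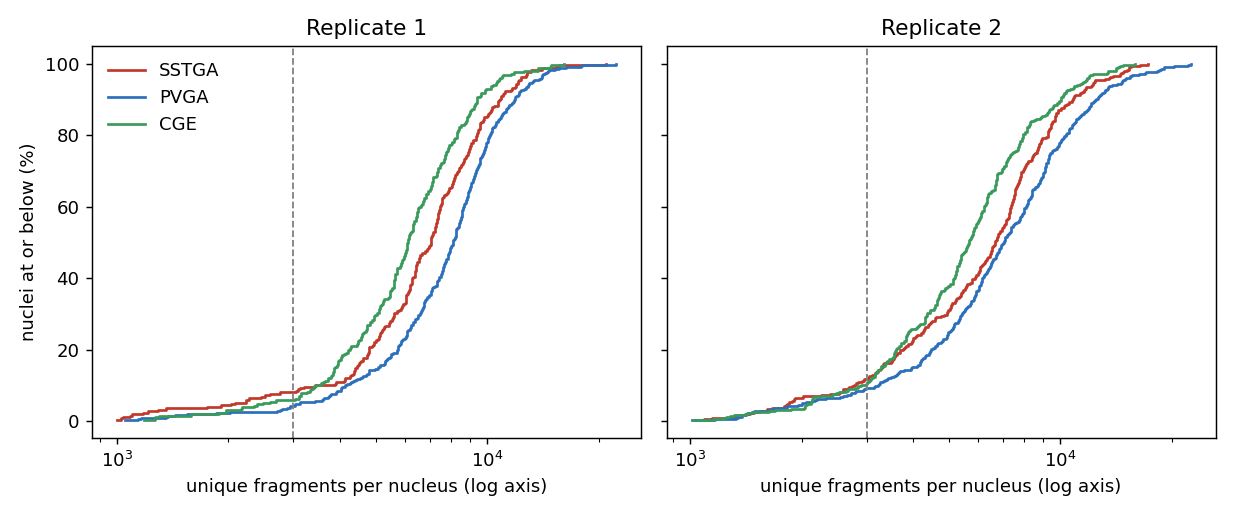
Cumulative share of nuclei (%) against unique fragments per nucleus (log axis) for SSTGA, PVGA and CGE in replicates 1 and 2; the dashed line marks 3000 fragments. Over most of the range SSTGA runs between CGE (left) and PVGA (right), and at the dashed line it is the highest of the 3 in both libraries, at 8.10% and 11.9%.

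Because the names differ in depth, the composition of the interneurons changed with depth, while the SSTGA share showed no steady rise or fall. GABAergic nuclei of each library were split into 5 parts of equal size by unique fragments. From the shallowest to the deepest part, SSTGA made up 30.4%, 29.0%, 34.3%, 25.6% and 28.0% in replicate 1. In replicate 2 it made up 31.3%, 24.6%, 26.6%, 35.7% and 27.4%. The intervals of all 5 parts overlapped within each library, and the highest part was not the same in both. In contrast, PVGA went from 28.6% in the shallowest to 57.7% in the deepest part of replicate 1 and from 27.4% to 51.0% in replicate 2, and CGE went from 41.1% to 14.3% and from 41.3% to 21.6%. The ratio of SSTGA to PVGA was accordingly 1.06 in the shallowest part (51 to 48 nuclei) and 0.485 in the deepest (47 to 97) of replicate 1, and 1.14 (65 to 57) and 0.538 (57 to 106) in replicate 2. The ratio of SSTGA to CGE went the other way, from 0.739 to 1.96 and from 0.756 to 1.27. The split uses the same unique counts as the medians above, so it largely restates their order and is no separate evidence.

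**Figure D3:**
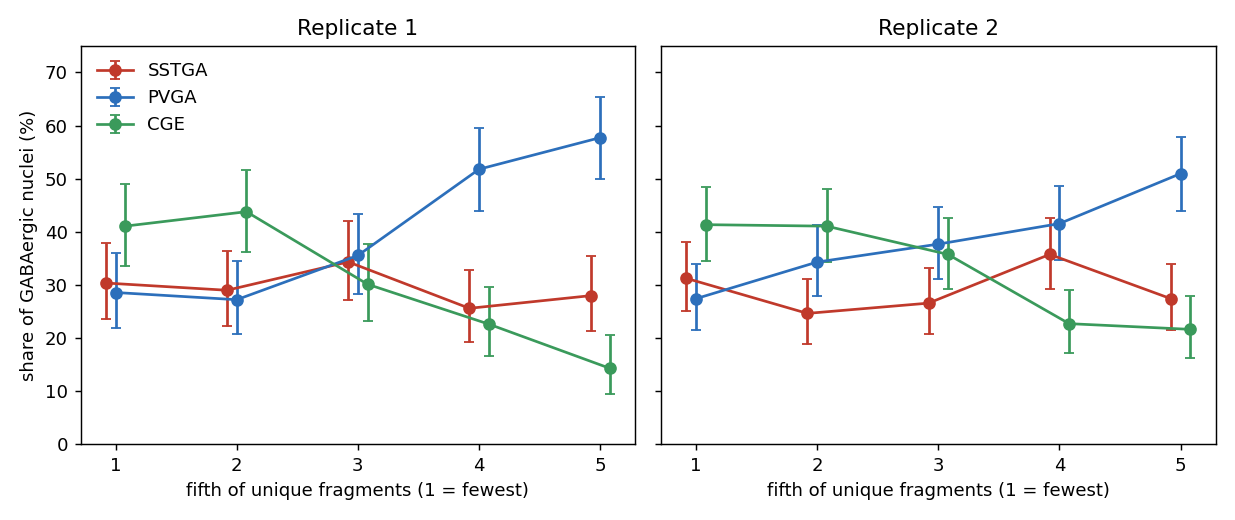
Share of GABAergic nuclei (%) in SSTGA, PVGA and CGE for 5 parts of equal size by unique fragments per nucleus, from the fewest (1) to the most (5), in replicates 1 and 2. Bars are exact 95% intervals of counting error. SSTGA stays between 24.6% and 35.7%, PVGA is higher in the deepest than in the shallowest part, and CGE is lower.

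The effect of a minimum on fragments was counted. With at least 5000 unique fragments, 77.7% of SSTGA nuclei remained in replicate 1 (192 of 247) and 68.9% in replicate 2 (208 of 302). Of PVGA, 85.5% and 75.1% remained, and of CGE 70.2% and 62.0%. The share of SSTGA among the remaining GABAergic nuclei was 29.1% in both libraries. Its share of all remaining nuclei was 4.40%, and its ratio to PVGA was 0.681 (means of the libraries). The minimum lay above the median of every non-neuronal name, the highest being 4256 (vascular endothelial cells, replicate 1). Most non-neuronal nuclei therefore left the denominator of the share of all nuclei. Added over nuclei, the SSTGA profile held 1753747 unique fragments in replicate 1 and 2028726 in replicate 2. This was 28.8% and 28.6% of the GABAergic fragments, and 3.64% and 3.67% of the fragments of each library.

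The steps from sequenced to unique fragments were followed per nucleus. SSTGA nuclei had a median of 8522 total fragments in replicate 1, of which 8205 were uniquely mapped, 8167 properly paired and 7047 unique, each number being a median of its own. In replicate 2 the medians were 8164, 7838, 7802 and 6666. The uniquely mapped share had a median of 96.12% (quartiles 95.85 and 96.38) and 96.21% (95.87 and 96.50). It was lower than that of PVGA, the name with the highest median of all 17, in both libraries (96.41% and 96.44%). The difference of medians was -0.29 and -0.24 percentage points, and -0.31 and -0.27 after matching nuclei on total fragments in 10 bins. An SSTGA nucleus had the lower share in 69.7% and 64.0% of the pairs with a PVGA nucleus. The mean difference before matching was -0.264 ± 0.0393 (SD, n = 2). Its size was larger than this SD of the difference, but below the distance between the quartiles of SSTGA in either library. Against CGE the difference was -0.07 in each library, with the SSTGA nucleus lower in 51.5% and 53.9% of the pairs.

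For pairing and duplication, the differences between SSTGA and the other interneurons were below 1 percentage point. Of its uniquely mapped fragments, 99.47% and 99.51% were properly paired (medians), where PVGA had 99.48% and 99.50% and CGE 99.49% and 99.52%. Matched on total fragments, the difference of SSTGA to CGE was -0.054 and -0.051 percentage points, a mean of -0.052 ± 0.0019 (SD, n = 2). Its size was larger than the SD of the difference over the libraries. Without matching it was -0.017 and -0.016, so its size depended on the matching, and other numbers of bins were not tried for it. Duplicates made up a median of 13.5% of the properly paired fragments in replicate 1 and 14.5% in replicate 2, and the libraries differed more than the names did. With nuclei matched in the 10 bins of total fragments, the difference in duplicates to PVGA was 0.0055 and 0.069 percentage points, with a mean of 0.037 ± 0.045 (SD, n = 2). The mean was 0.0029 without matching, 0.096 with 5 bins and 0.127 with 20 bins, so its size depended on the matching. The difference to CGE was -0.22 and -0.26 with matching, a mean of -0.24 ± 0.029, and -0.13 and -0.14 without. In each case its size exceeded the SD of the difference over the libraries, but not the difference in duplicates between the libraries. An SSTGA nucleus had the lower duplicate share in 54.1% and 55.3% of the pairs with a CGE nucleus. In pairs with a PVGA nucleus it was lower in 49.7% and 48.9%. The lowest duplicate share of an SSTGA nucleus was 1.63% in replicate 1, in a nucleus of 1026 unique fragments, and the next lowest was 10.6%. In replicate 2 the lowest was 10.8%.

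From the unique and properly paired counts, the number of distinct fragments in each nucleus was estimated under the assumption that all fragments are equally likely to be sequenced. The median estimate for SSTGA was 26751 in replicate 1 (quartiles 20796 and 33796) and 24401 in replicate 2 (15589 and 31128). PVGA had 31347 and 26212, and CGE 23582 and 20215. The ratio of SSTGA to PVGA was 0.853 and 0.931 and that to CGE 1.13 and 1.21, so the names had the same order as for unique fragments. The estimate is computed from the unique and properly paired counts, and the duplicate shares of these names were close to each other. Its order therefore largely restates the order of unique fragments and is no separate evidence on depth.

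**Figure D4:**
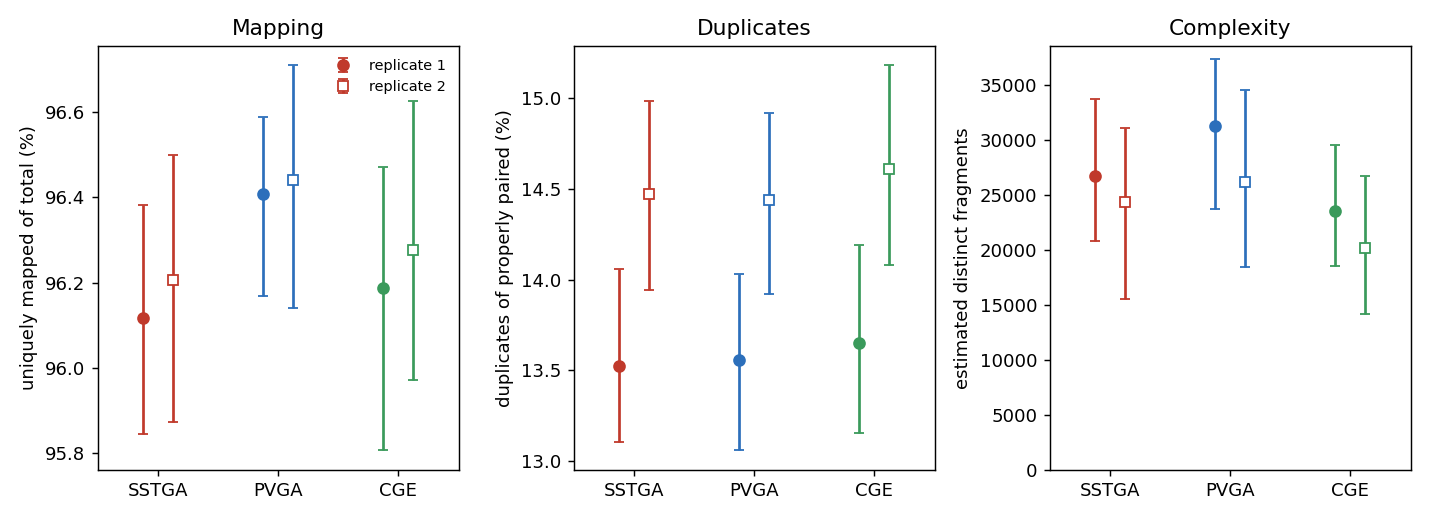
Medians with quartiles over nuclei of SSTGA, PVGA and CGE (filled, replicate 1; open, replicate 2) for the uniquely mapped share of total fragments (%), the duplicate share of properly paired fragments (%) and the estimated number of distinct fragments per nucleus. The first 2 axes do not start at 0. SSTGA has a lower mapped share than PVGA in both libraries, and duplicates differ between the libraries more than between the names.

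In the deposited UMAP embedding, SSTGA nuclei formed 1 island that held no other name. Nuclei were linked when they lay within 0.244 units of each other, 3 times the median distance of a nucleus to its 10th nearest neighbour. All 247 nuclei of replicate 1 and all 302 of replicate 2 fell in the same linked group, and it held 0 nuclei of the other 16 names. Only 5 of the 17 names were a single linked group of their own, namely SSTGA, PVGA, CGE, ASC and VLMC. Among the 30 nearest neighbours of SSTGA nuclei, 100% were SSTGA in each library. None of 247 and 302 nuclei had most of its neighbours under another name, and a count of 0 allows up to 1.21% and 0.993% (3 counts of the total), with exact 95% upper bounds of 1.48% and 1.21%. The names and the embedding come from the same accessibility data, so these values describe the annotation and do not test it.

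The island spanned 1.89 units along the first axis and 0.734 along the second in replicate 1, and 2.01 and 0.868 in replicate 2. The nearest nucleus of another name was in every case a layer 5 pyramidal tract neuron (PTGL), at a median distance of 4.82 units in replicate 1 and 4.84 in replicate 2. ITL5GL (7.31 and 7.43) and ITL4GL (7.78 and 7.90) followed, and PVGA ranked 4 with 9.29 and 9.26. CGE lay at 15.1 and 15.2 units and ranked 9 of the other 16 names in both libraries. For PVGA, too, the nearest other name was PTGL for all 337 and 398 nuclei, with medians of 5.24 and 5.22 units. CGE nuclei instead lay nearest to vascular endothelial cells (VEC; 176 and 258 nuclei) or to PER (79 in each library), at medians of 3.86 and 3.44 units. Distances between islands in a UMAP embedding do not measure how alike the names are, and which nuclei were embedded together was not stated in the sources read.

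**Figure D5:**
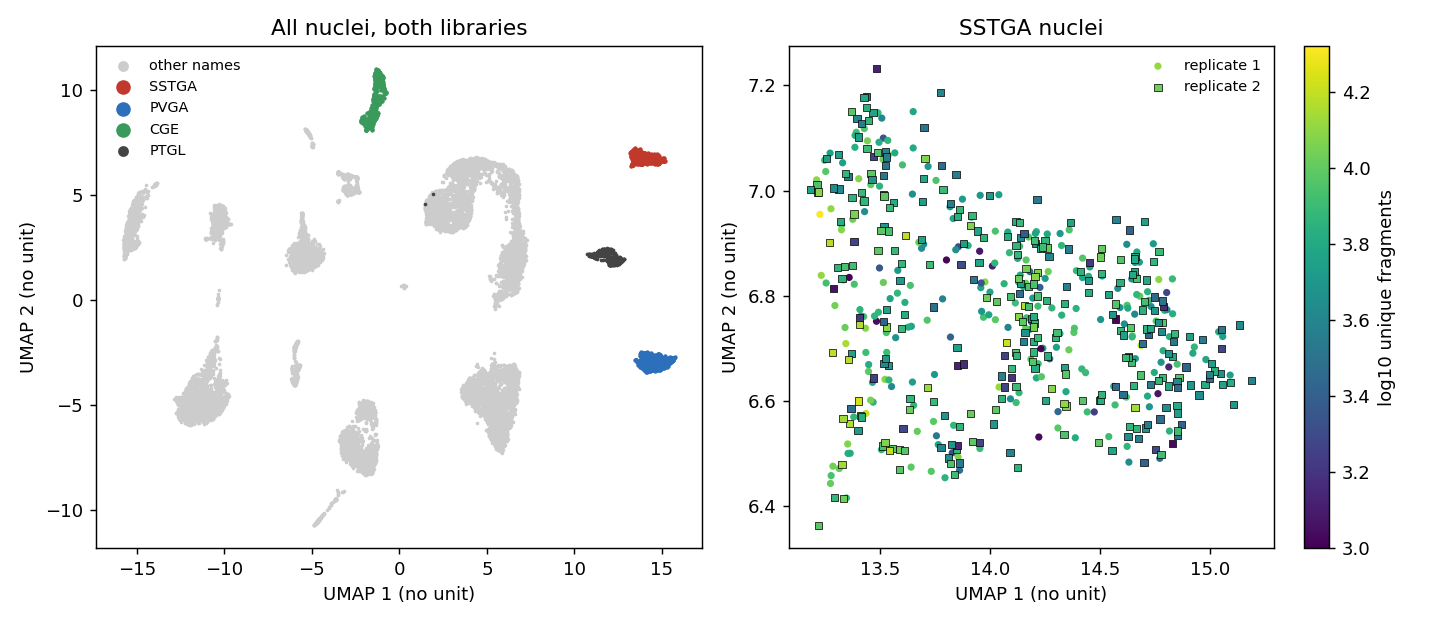
Left, UMAP coordinates (no unit) of all nuclei of both libraries, with SSTGA, PVGA, CGE and PTGL coloured; right, SSTGA nuclei alone, coloured by log10 unique fragments (circles, replicate 1; outlined squares, replicate 2). SSTGA forms 1 island apart from all other names, and both libraries are found over the whole of it.

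The libraries were mixed within the island. Of the 30 nearest SSTGA neighbours of a nucleus of replicate 1, 54.0% came from replicate 2, where random mixing gives 55.1%, and for replicate 2 the values were 45.4% and 45.1%. The ratio of observed to random was 0.981 and 1.01, a mean of 0.994 ± 0.0192 (SD, n = 2), beside 0.978 for PVGA and 0.970 for CGE. Split into 4 parts of equal size along the first axis, the island held 67, 67, 62 and 51 nuclei of replicate 1 and 71, 70, 75 and 86 of replicate 2. The part farthest to the right thus took 20.6% of replicate 1 (15.8 to 26.2) and 28.5% of replicate 2 (23.5 to 33.9), with overlapping intervals.

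Depth varied along the island. In replicate 1 the leftmost part had a median of 8585 unique fragments, and the next parts 5988, 6981 and 6260. In replicate 2 the medians were 6802, 6824, 7343 and 5534. The leftmost part stood above the others in replicate 1 alone, and the rightmost was the lowest in replicate 2 alone. Nuclei under 3000 fragments were found in all 4 parts, with 4, 7, 6 and 3 in replicate 1 and 8, 9, 4 and 15 in replicate 2. Across nuclei, Spearman's rho of the first coordinate with unique fragments was -0.29 in replicate 1 (n = 247) and -0.19 in replicate 2 (n = 302), given as a description, since the nuclei share a library and the embedding may itself carry depth. Along the same axis PVGA had -0.37 and -0.30, and CGE had values of the opposite sign, 0.32 and 0.31. The part of depth in the position of SSTGA nuclei was not tested.

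Across the libraries, 105 barcodes occurred in both, and 11 of these had the same name in both. The name SSTGA, at 3.32% and 3.40% of all nuclei, was carried by 7 of them in 1 library. None was SSTGA in both, and counts this small show nothing particular to SSTGA.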

How the data were processed

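The authors deposited 1 table per 10x library with fragment counts per nucleus, namely total (TN), uniquely mapped (UM), properly paired (PP), unique (UQ) and mitochondrial, the last listed as 0 throughout. The column names were read as SnapTools uses them. The tables also hold log10 values, which equal the log10 of the unique count plus 1, and UMAP coordinates, deposited as scores without a unit. Before deposit, the authors aligned reads with bwa (mm10), kept well-mapped proper pairs under a length limit, collapsed duplicates with SnapTools, required a minimum of fragments and of TSS enrichment per nucleus, and removed doublets and barcode collisions. No further doublet calling was done. The processing notes also name Cell Ranger ATAC, with no role or version stated in the sources read. Such filters keep deeply covered nuclei and can change shares.

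Replicate 1 held 48179226 unique fragments (median 6170 per nucleus) and replicate 2 held 55337466 (5457). Shares have exact Clopper-Pearson 95% intervals, ratios of nuclei were converted from them, and the log2 ratio has an interval by the log method. All cover counting error only. Means and SDs are over 2 libraries. The estimated number of distinct fragments X solves UQ = X(1 - exp(-PP/X)), from the deposited counts. Matching on depth took 10 bins of total fragments in each library, weighted by SSTGA nuclei. The bins were of equal size and were set on the nuclei of SSTGA and of the name compared, PVGA or CGE. The bins for PVGA and for CGE were therefore set separately. Functions were tested on simulated data with random seed 1. Scripts ran in Python 3.11.15 with scipy 1.17.1, pandas 2.3.3, numpy 2.4.6 and matplotlib 3.10.9.

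The members, comparisons and alternatives were chosen with earlier results of these data known. The limit of 3000 fragments, the 5 parts by depth and 4 parts by position, the comparison of pairs of nuclei and the shorter linking distances were chosen after the values were seen. Names other than SSTGA, PVGA and CGE were to be given only where they took at least 1% of the neighbours or were the nearest other name of at least 5 SSTGA nuclei, which PTGL alone met; ASC, VLMC, ITL5GL, ITL4GL, PER and vascular endothelial cells were named after their values were seen. TSS enrichment, accessibility at genes and nuclei made by combinatorial indexing were not analysed here.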

Additional observations from a re-analysis of the deposited data

How the results depend on the processing

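Of 142 values recomputed under alternatives for 21 results, 121 stayed within 1 SD over the libraries (or within the counting interval, or within 1.5 times for the number of islands) and 21 moved further. With at least 2000 unique fragments, SSTGA made up 3.56% of all nuclei and 28.8% of GABAergic nuclei, and the matched duplicate difference was 0.098 points to PVGA and -0.28 to CGE. With at least 5000, the share of all nuclei was 4.40%, the ratio to PVGA 0.681 and to CGE 1.03, the ratio of median fragments to CGE 1.10, the median 7574 fragments, the properly paired share 99.52%, the estimated distinct fragments 28817 and the duplicate difference to PVGA 0.135. At that minimum SSTGA outnumbered CGE in replicate 1 (192 to 179) but not in replicate 2 (208 to 209). The log2 ratio between the libraries was then -0.02, and its interval in all nuclei holds this value. When the deepest 5% of nuclei were left out, the shares were 3.44% and 29.6% and the ratio to PVGA 0.771. With geometric means, the ratio of fragments to CGE was 1.09 and the SSTGA value 6122 fragments. The duplicate difference to PVGA was 0.096 with 5 bins and 0.127 with 20, and that to CGE -0.13 without matching. The causes were not tested. With nuclei linked at 1 times the median distance, an alternative chosen after seeing the data, 99.2% (mean of the libraries) lay in the largest island and there was still 1 island of at least 10 nuclei. A single library of 2 cannot lie beyond 1 SD of their mean, so for means over the libraries such values were bound to be among the 121. No paired analysis was possible because no conditions share replicate numbers. The names were compared within each library, where an exact paired test cannot go below p = 0.5. Leaving out nuclei that lie among another name removed no SSTGA, PVGA or CGE nucleus, so its values were also bound to be among the 121. The same holds for the shares of neighbours. The SSTGA island was smaller across than its shortest distance to another name (4.11 units, PTGL), and it held more nuclei than the neighbours counted. Counting intervals of a few percentage points limit comparisons of GABAergic shares at these numbers of nuclei.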
